A study of Mus musculus with 6 samples.

Results

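The Fc receptors described here are the proteins with which cells bind antibody, and the genes are those of the Fc gamma receptors Fcgr1, Fcgr2b, Fcgr3 and Fcgr4, the shared signalling chain Fcer1g, the IgE-binding chain Fcer1a and the neonatal receptor Fcgrt. They were taken by gene symbol, with every probe that carries it. This gave 7 of 24339 named genes on the array and 9 of 56605 probes that were not controls. All 9 probes were well above background on all 6 arrays and 0 were saturated, so all 9 were among the 33734 probes tested.

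The samples were spleen RNA of female NOD mice, an inbred strain that develops autoimmune diabetes spontaneously. The MOTS-c group received MOTS-c, a small peptide whose open reading frame lies in mitochondrial DNA, by daily intraperitoneal injection at 0.5 mg/kg/day, and the vehicle group received a scrambled peptide by the same schedule. Mice of both groups were 6 weeks old at the start and were killed at 18 weeks of age after 16 to 18 h without food. Each group had 3 one-colour arrays, named MOTS-c 1 to 3 and vehicle 1 to 3. Vehicle 1 and 2 lay on slide 1, and vehicle 3 and MOTS-c 1 to 3 lay on slide 2. Whether a group's samples are separate animals is not stated in the labels, and p-values here cover the spread between these samples, which may be technical. The study as titled is about autoimmune islet destruction and its prevention by the peptide. The comparison made here asks how the spleen's Fc receptor transcripts differed after the peptide.

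Fc gamma receptors bind the constant part of IgG and let macrophages, monocytes, neutrophils and NK cells respond to antibody-coated targets. In mice, Fcgr1, Fcgr3 and Fcgr4 encode activating receptors, which need the common gamma chain encoded by Fcer1g to reach the surface and to recruit the kinase Syk. Fcgr2b encodes the inhibitory receptor, which recruits the phosphatase SHIP1 and restrains B cells and myeloid cells. Fcer1a encodes the IgE-binding chain of mast cells and basophils, and Fcgrt pairs with beta-2-microglobulin to salvage IgG from breakdown. NOD mice are known to carry strain alleles of Fcgr1 and of the Fcgr2b promoter, which both groups here share.

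The probes are shown because each level below is the signal of 1 such sequence of 60 bases. They are the sequences of the array design, with positions in mm9. For 4 probes the whole sequence is given and for 5 the first 30 bases, 5′ to 3′. Fcgr2b and Fcgr3 each have a pair of probes. The design assigns the Fcgr2b pair to transcript variants 1 and 2 and the Fcgr3 pair to a cDNA entry and a RefSeq entry. Whether a probe reads only the transcript it is assigned to was not determined, so the names label probes and not measured variants.
Fcgr2b, variant 1 probe, chr1:172890988-172891047, minus strand, first 30 bases: acttctgtgagtcctgaaaccaacagacac
Fcgr2b, variant 2 probe, chr1:172895833-172895892, minus strand: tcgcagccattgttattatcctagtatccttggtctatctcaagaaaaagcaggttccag
Fcgr1, chr3:96088462-96088521, minus strand: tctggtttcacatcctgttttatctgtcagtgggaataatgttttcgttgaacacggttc
Fcgr3, cDNA probe, chr1:172981647-172981722, minus strand, first 30 bases: ttacaagcaggccgggatgtttggttcttc
Fcgr3, RefSeq probe, chr1:172984129-172984188, minus strand: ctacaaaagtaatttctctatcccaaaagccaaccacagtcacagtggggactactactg
Fcgr4, chr1:172959738-172959797, plus strand, first 30 bases: ccaagaagcgattcttcagaattttacact
Fcer1g, chr1:173159794-173159853, minus strand, first 30 bases: aggtccccatctccgttaaagacttactca
Fcer1a, chr1:175152865-175152924, minus strand, first 30 bases: attggctgctccttcagacatctgctgaca
Fcgrt, chr7:52350556-52350615, minus strand: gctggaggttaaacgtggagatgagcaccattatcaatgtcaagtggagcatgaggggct

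Fcgr2b and Fcgr3 encode proteins with closely related extracellular parts. The probes were compared with each other only, and not with the transcripts of the other receptors. Among the 36 pairs of these 9 probes the longest run of bases in common, on either strand, was 8, over the full 60 bases. The 9 probes had 40% to 50% G or C. The cDNA probe of Fcgr3 was placed over 76 genomic bases and the other probes over 60 each. Runs shared between probes do not show how closely a probe matches the transcript of another gene. Hybridisation of a probe to such a transcript was not tested.

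With MOTS-c, the inhibitory receptor Fcgr2b and the activating receptor Fcgr4 had higher levels on all 3 arrays than on any vehicle array, by 1.47- to 1.68-fold for Fcgr2b and 1.39-fold for Fcgr4. Fcgr3 had a mean 1.23- to 1.27-fold higher with overlapping groups. Fcgr1, Fcer1g, Fcer1a and Fcgrt had folds between 0.985 and 1.11, also with overlapping groups. None of the 9 probes passed limma's test across all probes at an adjusted p under 0.05, where 2 of 33734 probes passed (0.00593%), both higher with MOTS-c and neither with a gene name. A level here is log2 of the probe's processed signal minus that of the array's 75th percentile, so that 0 is the signal of that percentile. Levels of different probes are not comparable with each other.

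**Figure D1:**
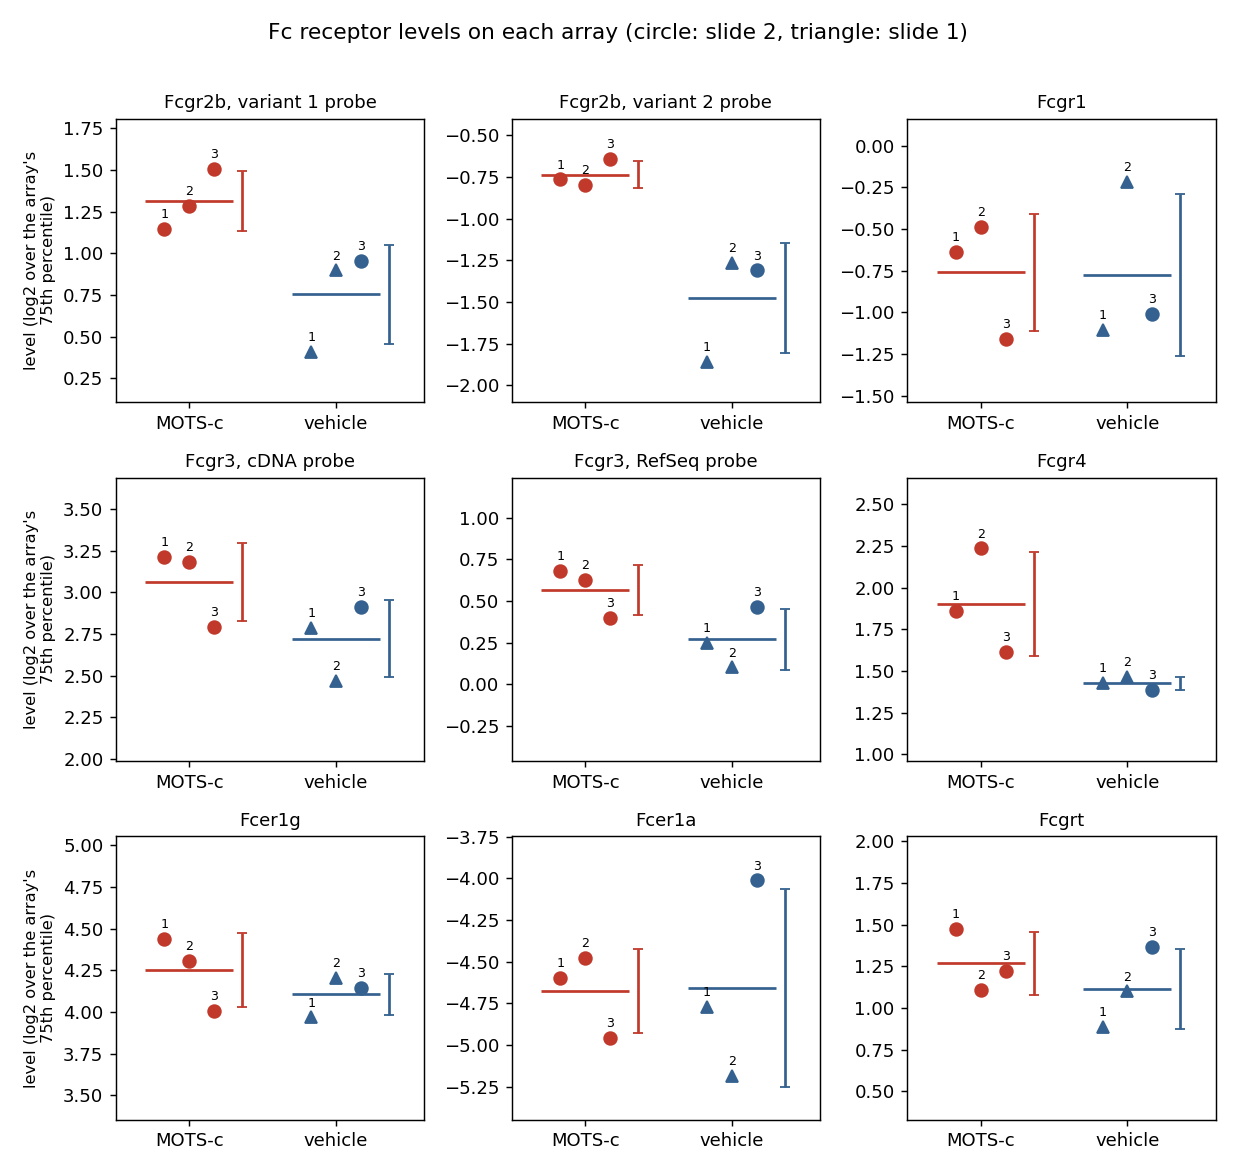
Levels of the 9 Fc receptor probes on each array, in log2 over the array's 75th percentile, with MOTS-c arrays in red at the left and vehicle arrays in blue at the right of each panel; numbers are replicates, circles lie on slide 2 and triangles on slide 1, lines are means and bars ± 1 SD (n = 3). All panels span the same number of log2 units, and the MOTS-c values lie wholly above the vehicle values for both Fcgr2b probes and for Fcgr4.

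Fcgr2b, the inhibitory receptor, was read by 2 probes that moved together across the arrays. The variant 1 probe had levels of 1.15, 1.29 and 1.51 on MOTS-c 1 to 3, against 0.41, 0.90 and 0.95 on vehicle 1 to 3. The groups did not overlap, and vehicle 1 lay well below the other two vehicle arrays. The mean was 1.31 ± 0.18 with MOTS-c and 0.75 ± 0.30 with vehicle (SD, n = 3 each). The log2 difference was 0.56 ± 0.20 (SE), with a 95% interval of 0.096 to 1.02 and an adjusted p of 0.149 by limma (unadjusted p 0.0244).

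The variant 2 probe of Fcgr2b had levels of -0.76, -0.80 and -0.64 on MOTS-c 1 to 3, against -1.86, -1.27 and -1.31 on vehicle 1 to 3. Again all 3 MOTS-c arrays were higher than every vehicle array, and vehicle 1 was the lowest. The mean was -0.73 ± 0.083 with MOTS-c and -1.48 ± 0.33 with vehicle (SD, n = 3 each). The log2 difference of 0.74 ± 0.19 (SE, 95% interval 0.29 to 1.20) was the widest of the 9 probes, with an adjusted p of 0.0976 by limma (unadjusted p 0.00610). After each probe was centred on its mean over the 6 arrays, the pair differed by a root mean square of 0.12 log2 units, and by at most 0.23, on MOTS-c 1. Both probes were also higher within slide 2, where MOTS-c 1 to 3 stood against vehicle 3 alone. There the differences were 0.36 for the variant 1 probe and 0.58 for the variant 2 probe. These were the same as with the slide as a block, where neither probe had an unadjusted p under 0.05 by limma. Without vehicle 1 the differences were 0.39 and 0.55.

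Fcgr4, the activating receptor of mouse monocytes, macrophages and neutrophils that binds IgG2 subclasses, had levels of 1.86, 2.24 and 1.61 on MOTS-c 1 to 3, against 1.43, 1.46 and 1.39 on vehicle 1 to 3. The vehicle arrays lay close together, and the MOTS-c arrays were spread above them, with MOTS-c 2 highest. The mean was 1.90 ± 0.31 with MOTS-c and 1.43 ± 0.039 with vehicle (SD, n = 3 each). The log2 difference was 0.48 ± 0.19 (SE), with a 95% interval of 0.038 to 0.92 and an adjusted p of 0.174 by limma (unadjusted p 0.0368). Within slide 2 it was 0.52, and without MOTS-c 2 it was 0.31.

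Fcgr3, the low-affinity activating receptor of NK cells and myeloid cells, was read by 2 probes that agreed closely. The cDNA probe had levels of 3.21, 3.18 and 2.79 on MOTS-c 1 to 3, against 2.79, 2.47 and 2.91 on vehicle 1 to 3. The RefSeq probe had levels of 0.68, 0.62 and 0.40 on MOTS-c 1 to 3, against 0.25, 0.10 and 0.46 on vehicle 1 to 3. On both probes MOTS-c 1 and 2 were the highest arrays, vehicle 3 was above MOTS-c 3, and vehicle 2 was lowest, so that the groups overlapped. The log2 difference was 0.34 ± 0.19 (SE, 95% interval -0.11 to 0.79) for the cDNA probe and 0.30 ± 0.16 (-0.088 to 0.68) for the RefSeq probe, with adjusted p-values of 0.288 and 0.284 by limma. The pair differed by a root mean square of 0.075 log2 units after centring. Within slide 2 the differences were 0.15 and 0.10, and without vehicle 2 that of the cDNA probe was 0.21.

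Fcgr1, the high-affinity IgG receptor of monocytes and macrophages, had levels of -0.64, -0.49 and -1.16 on MOTS-c 1 to 3, against -1.11, -0.22 and -1.01 on vehicle 1 to 3. Vehicle 2 was the highest and MOTS-c 3 the lowest array, and the groups covered much the same range. MOTS-c minus vehicle was 0.017 ± 0.29 on the log2 scale (SE), and its 95% interval of -0.66 to 0.69 contains the differences seen for Fcgr2b's variant 1 probe and Fcgr4 (adjusted p 0.974 by limma). It was -0.0043 with quantile normalization and 0.25 within slide 2.

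Fcer1g, the common gamma chain that the activating receptors and the IgE receptor share, had levels of 4.44, 4.31 and 4.01 on MOTS-c 1 to 3, against 3.97, 4.21 and 4.14 on vehicle 1 to 3. MOTS-c 3 lay among the vehicle arrays, and MOTS-c 1 and 2 lay above them. This gave a log2 difference of 0.15 ± 0.17 (SE, 95% interval -0.25 to 0.54, adjusted p 0.595 by limma). Quantile normalization, which also sets the bright end of each array to a common scale, gave 0.37, with levels of 14.25, 14.13 and 13.90 on MOTS-c 1 to 3, against 13.47, 13.89 and 13.80 on vehicle 1 to 3. On that scale the groups did not overlap (adjusted p 0.223 by limma). Under the 75th percentile scaling the difference was 0.051 without MOTS-c 1, 0.076 without vehicle 1, 0.27 without MOTS-c 3 and 0.11 within slide 2.

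Fcer1a, the IgE-binding chain of mast cells and basophils, gave a weak signal of 37.8, 40.4 and 29.8 units on MOTS-c 1 to 3, against 24.8, 23.1 and 52.8 units on vehicle 1 to 3. As levels these were -4.60, -4.48 and -4.96 with MOTS-c, against -4.77, -5.18 and -4.01 with vehicle. Vehicle 3 was the highest and vehicle 2 the lowest of the 6 arrays. MOTS-c minus vehicle was -0.022 ± 0.31 on the log2 scale (SE, 95% interval -0.74 to 0.69, adjusted p 0.968 by limma). It was -0.67 within slide 2 and 0.30 without vehicle 3. Without MOTS-c 3 it was 0.12 and without vehicle 2 it was -0.29, so its sign and its size depended on single arrays.

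Fcgrt, the neonatal Fc receptor, had levels of 1.48, 1.11 and 1.22 on MOTS-c 1 to 3, against 0.89, 1.1 and 1.37 on vehicle 1 to 3. The groups overlapped, with MOTS-c 1 highest and vehicle 1 lowest. The log2 difference was 0.15 ± 0.18 (SE, 95% interval -0.28 to 0.58, adjusted p 0.610 by limma). It was -0.096 within slide 2, 0.036 without vehicle 1 and 0.048 without MOTS-c 1.

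Over the 9 probes, 3 had MOTS-c values wholly above the vehicle values, against 16.3% of all probes tested, and 0 had them wholly below, against 18.5%. The same 3 probes had an unadjusted p under 0.05, against 11.3% of all probes higher and 14.1% lower at that level. Means were higher with MOTS-c for 8 of the 9, against 52.2% of all probes. The median difference over the 9 was 0.30, from -0.022 to 0.74, beside a median of 0.024 over all probes tested. These 9 probes are not independent, since 4 of them belong to Fcgr2b and Fcgr3, and with 1 probe a gene the median was 0.15. A slide block gave a median over the 9 of 0.15, beside 0.043 over all probes. With quantile normalization it was 0.37 beside 0.038, and 5 of the 9 had MOTS-c values wholly above the vehicle values, against 17.6% of all probes in that direction. The other two were the cDNA probe of Fcgr3 and the probe of Fcer1g.

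**Figure D2:**
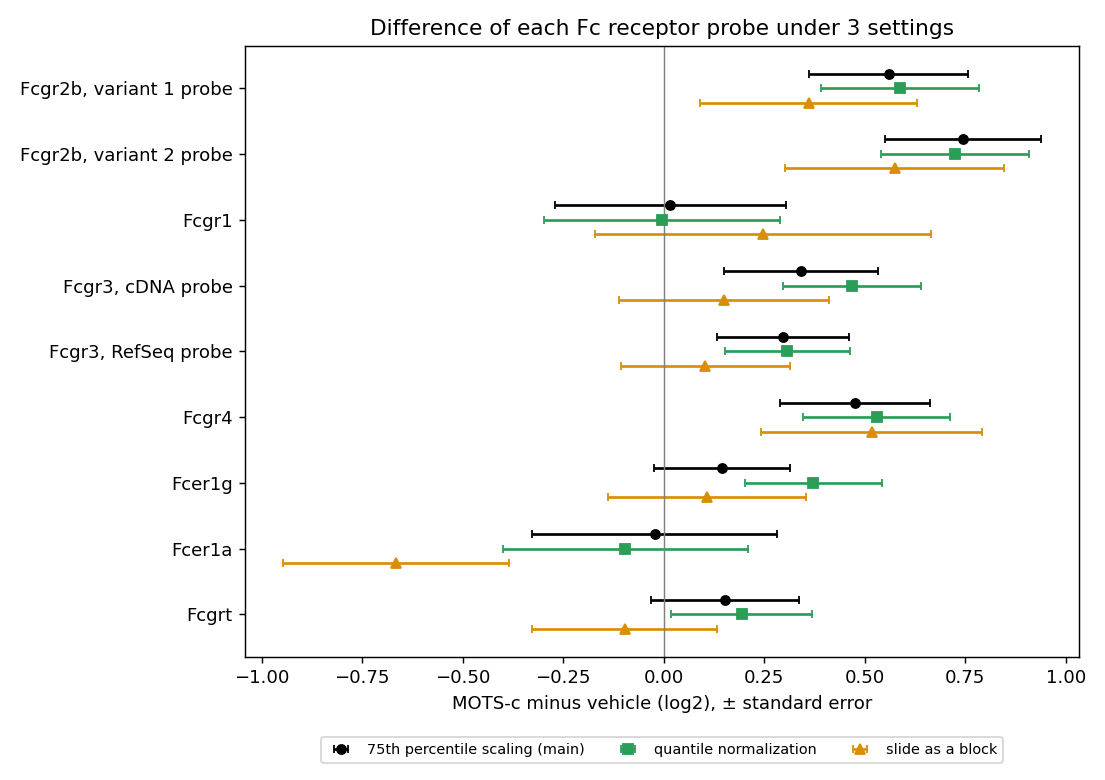
Log2 difference of MOTS-c minus vehicle for the 9 Fc receptor probes, ± 1 standard error, under the 75th percentile scaling (black circles), quantile normalization (green squares) and the slide as a block (orange triangles). Both Fcgr2b probes and Fcgr4 lie above 0 under all 3 settings, as do both Fcgr3 probes and Fcer1g, while Fcgr1 and Fcgrt change side and Fcer1a lies below 0.

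The arrays at the extremes were not the same for all receptors. The lowest level was on vehicle 1 for 4 of the 9 probes, on vehicle 2 for 3, on vehicle 3 for 1 and on MOTS-c 3 for 1. The highest was on MOTS-c 1 for 4, on MOTS-c 3 for 2, and on MOTS-c 2, vehicle 2 and vehicle 3 for 1 each. MOTS-c 3 was the highest array for both Fcgr2b probes and the lowest MOTS-c array for Fcgr1, Fcgr3, Fcgr4, Fcer1g and Fcer1a.

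The balance of the inhibitory receptor and its activating partners was read within each array, as the variant 1 probe of Fcgr2b minus each other receptor after centring. Fcgr2b minus Fcgr4 differed between MOTS-c and vehicle by 0.083 log2 units and Fcgr2b minus Fcgr3 by 0.22. Fcgr2b minus Fcer1g differed by 0.41 and Fcgr2b minus Fcgr1 by 0.54. In all 6 such differences, those with Fcer1a and Fcgrt included, the groups overlapped, and MOTS-c 3 was the array with the highest value. This overlap depended on the Fcgr2b probe used. By the levels given above, the variant 2 probe minus Fcer1g, and minus Fcgrt, was higher on every MOTS-c array than on any vehicle array. With the other receptors its groups overlapped too.

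In the deposited table of the authors, which rests on quantile-normalized values of the same arrays, the signed folds of MOTS-c over vehicle were 1.5 and 1.65 for the Fcgr2b probes and 1.44 for Fcgr4. That table gave 1.39 and 1.24 for the Fcgr3 probes, 1.30 for Fcer1g and 1.14 for Fcgrt. Its values for Fcgr1 and Fcer1a were -1.003 and -1.04, where a minus sign marks a lower mean with MOTS-c. The cDNA probe of Fcgr3 had the smallest p-value of the 9 in the authors' deposited table, at 0.0443 with an adjusted p of 0.370.

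Fcgr2b, Fcgr4, Fcgr3 and Fcer1g lie in that order on chromosome 1, with Fcer1a farther along it, Fcgr1 on chromosome 3 and Fcgrt on chromosome 7. In GRCm38.p6, the 273.8 kb between 170960558, the start of Fcgr2b, and 171234349, the end of Fcer1g, hold 42 RefSeq genes, of which 8 besides the 4 receptors were tested. The 8 neighbours had a median difference of -0.18, with 5 lower and 3 higher means. Sdhc, a subunit of succinate dehydrogenase, differed by -0.33 ± 0.14 (SE, adjusted p 0.184 by limma) and was lower on each MOTS-c array than on any vehicle array, and the other 7 had overlapping groups. This interval was chosen after the values were seen.

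The receptors that share an activating role were set beside Fcgr2b in their promoters, because PU.1, a transcription factor of myeloid and B cells, is known to act on Fc gamma receptor genes. The 100 bases before the first listed RefSeq start of each gene are given in GRCm38.p6, 5′ to 3′ on the strand of the gene, with capitals marking the motif GAGGAA or its complement TTCCTC, the core of a PU.1 site.
Fcgr2b, chr1:170976072-170976171, minus strand: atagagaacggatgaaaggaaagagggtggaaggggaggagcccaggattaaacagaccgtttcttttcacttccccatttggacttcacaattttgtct
Fcgr4, chr1:171018826-171018925, plus strand: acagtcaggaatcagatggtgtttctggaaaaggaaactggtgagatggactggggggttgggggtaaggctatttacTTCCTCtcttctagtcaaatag
Fcgr3, chr1:171059404-171059503, minus strand: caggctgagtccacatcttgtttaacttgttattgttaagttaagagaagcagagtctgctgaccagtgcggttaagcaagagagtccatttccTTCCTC
Fcgr1, chr3:96293970-96294069, minus strand: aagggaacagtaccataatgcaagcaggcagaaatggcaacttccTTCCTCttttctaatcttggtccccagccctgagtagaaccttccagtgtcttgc

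In these windows the motif began at base -22 of Fcgr4, -6 of Fcgr3 and -55 of Fcgr1. Fcgr3 has 2 listed starts, and counted from the other it began at base -15. In the 250 bases before the start it was found in Fcgr1, Fcgr3, Fcgr4 and Fcer1a, and not in Fcgr2b, Fcer1g or Fcgrt. On either strand, 23.4% of 32536 promoter windows of that length hold it. The STAT motif TTCNNNGAA, searched in the same way, was found in Fcgr1 alone, at base -109, and 7.04% of windows hold it. These are letters of the reference strain and not of NOD, and no binding was measured. Whether the factor bears on any receptor level was not tested.

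The kinases and adaptors that act downstream of the activating receptors had higher means with MOTS-c in 14 of 15 tested genes, with a median difference of 0.39. Of the 15, 4 were higher at an unadjusted p under 0.05, where 11.3% of all probes were, and 6 had MOTS-c values wholly above the vehicle values, where 16.3% of all probes did. None passed the adjusted test. Syk, the kinase recruited by the gamma chain, had levels of 4.38, 4.28 and 4.56 on MOTS-c 1 to 3, against 3.39, 4.12 and 4.06 on vehicle 1 to 3. Every MOTS-c array was higher than every vehicle array, and vehicle 1 was lowest. Its difference was 0.55 ± 0.22 (SE, adjusted p 0.184 by limma), and its other probes ran from 0.12 to 0.74. Btk, a kinase of B cells and myeloid cells, differed by 0.45 ± 0.16, Lyn, a Src family kinase that phosphorylates receptor tails, by 0.43 ± 0.18, and Prkcd, a protein kinase C, by 0.37 ± 0.15. Gab2, an adaptor of the IgE receptor pathway, was the exception at -0.14.

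The inhibitory signal list had higher means in 9 of 11 genes, with a median of 0.37. It holds phosphatases, adaptors and other negative regulators, and not only partners of Fcgr2b. Inpp5d, which encodes SHIP1, the phosphatase recruited by Fcgr2b, had levels of 3.72, 3.76 and 4.01 on MOTS-c 1 to 3, against 3.10, 3.08 and 3.39 on vehicle 1 to 3. All MOTS-c arrays were higher than all vehicle arrays, and the highest of each group was replicate 3. It was 1.56-fold higher in the mean (log2 0.64 ± 0.16, SE, adjusted p 0.0938 by limma), the smallest p of the 26 signalling genes. Ptpn6, the phosphatase SHP-1, differed by 0.85 ± 0.34 and Dok3, an adaptor of SHIP1 and Grb2, by 0.48 ± 0.19. Inppl1, which encodes SHIP2, differed by 0.31 ± 0.15. Of the 11, 3 were higher at an unadjusted p under 0.05 (11.3% of all probes) and 4 had MOTS-c wholly higher (16.3%). Both signalling lists together had higher means for 23 of 26 genes and a median of 0.38. A slide block gave medians of 0.34 for the activating and 0.36 for the inhibitory list. Without vehicle 1 they were 0.18 for the activating and 0.19 for the inhibitory list.

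**Figure D3:**
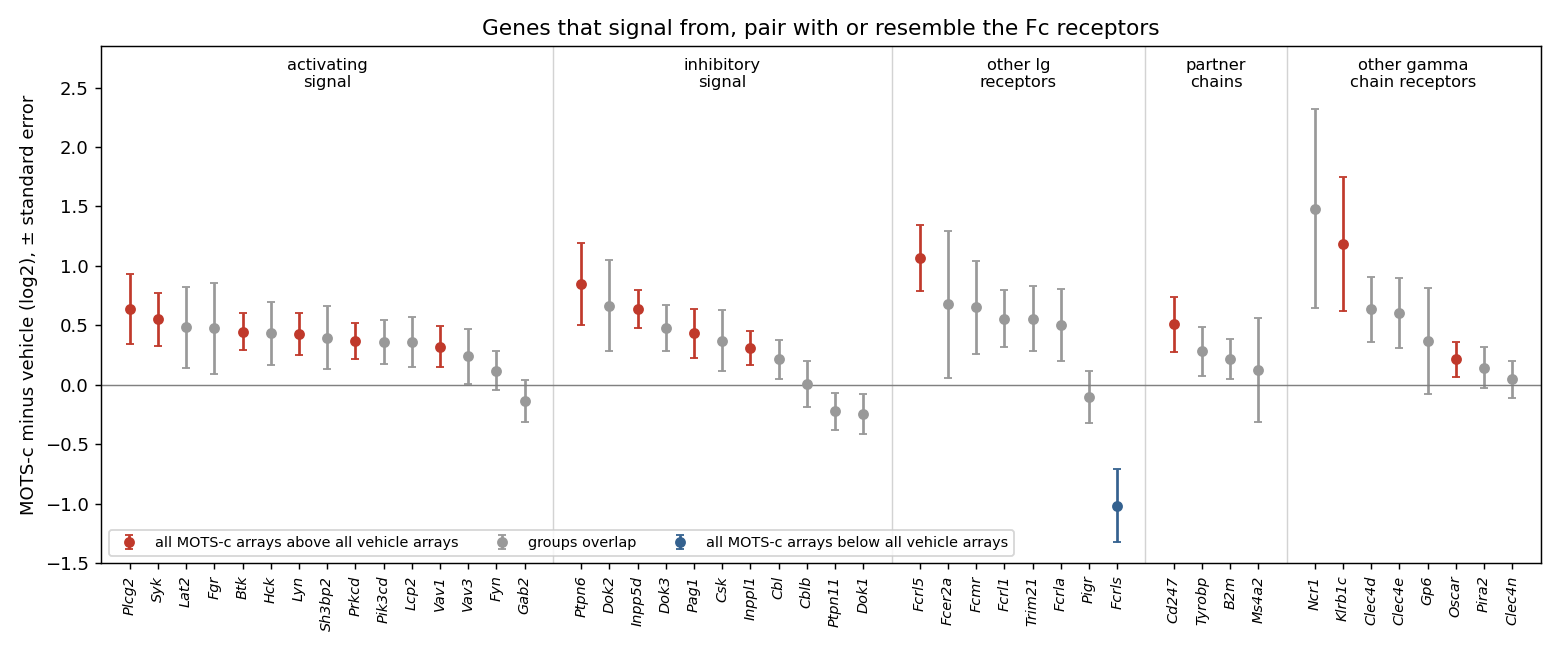
Log2 difference of MOTS-c minus vehicle, ± 1 standard error, for the tested genes of 5 lists: activating signal, inhibitory signal, other immunoglobulin receptors, partner and related chains, and other receptors that use the gamma chain. Red marks genes whose 3 MOTS-c arrays all lie above the 3 vehicle arrays, blue the reverse and grey overlapping groups; Inpp5d lies at 0.64, Fcrl5 at 1.07 and Fcrls at -1.02.

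The partner chains of the receptors had higher means for 4 of 4 genes, with a median of 0.25. Leaving out vehicle 1 gave 0.11, leaving out vehicle 3 gave 0.40 and leaving out MOTS-c 3 gave 0.45, while a slide block gave 0.14 and quantile normalization 0.44. B2m, which encodes beta-2-microglobulin, the partner of Fcgrt, differed by 0.22 ± 0.17 (SE), and its other probe by 0.78. Ms4a2, the beta chain of the IgE receptor, differed by 0.12 ± 0.44, and Tyrobp, an adaptor like the gamma chain, by 0.28 ± 0.21. Cd247, the T cell receptor zeta chain, which is known to pair with an Fc receptor in human NK cells, differed by 0.51 ± 0.23 (adjusted p 0.217 by limma), with all MOTS-c arrays higher.

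Other receptors known to pair with the gamma chain had higher means for 8 of 8 tested genes, with a median of 0.48. Clec4d and Clec4e, lectins of myeloid cells that sense microbial glycolipids, differed by 0.63 ± 0.28 and 0.60 ± 0.30 (SE). The NK cell receptors Klrb1c and Ncr1 differed by 1.18 ± 0.56 and 1.48 ± 0.84. Of the 8, 2 had MOTS-c wholly higher, where 16.3% of all probes did, and 0 had an unadjusted p under 0.05. Vehicle 1 was the lowest array for Ncr1, at -6.21, where the other arrays ran from -3.30 to -2.19. The list's median was 0.25 with a slide block, 0.29 without vehicle 1 and 0.31 without vehicle 2.

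Among other receptors for immunoglobulin, 6 of 8 tested genes had higher means, with a median of 0.56. The median was 0.17 without vehicle 1 and 0.37 with a slide block. Fcrl5, an Fc receptor-like protein of marginal zone and B1 B cells, had levels of 3.25, 3.06 and 3.61 on MOTS-c 1 to 3, against 1.71, 2.34 and 2.68 on vehicle 1 to 3. Each MOTS-c array was higher than each vehicle array. The difference was 1.07 ± 0.27 (SE, 2.10-fold, adjusted p 0.0960 by limma), but its other probes gave -0.25 and 0.63. Fcrls had levels of -3.38, -3.72 and -4.16 on MOTS-c 1 to 3, against -2.44, -3.34 and -2.43 on vehicle 1 to 3. All of its MOTS-c arrays were lower, by a mean of -1.02 ± 0.31 (adjusted p 0.121 by limma). Fcrl1, a B cell receptor-like protein, and Trim21, the cytosolic antibody receptor, each differed by 0.56, with overlapping groups.

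Of the immunoglobulin heavy chain constant genes, 1 of 8 was matched by symbol to a tested probe. Ighg3 had levels of -0.48, 3.74 and 2.41 on MOTS-c 1 to 3, against 2.10, -1.24 and 3.36 on vehicle 1 to 3. It varied more between arrays of a group than between groups, with a difference of 0.49 ± 1.38 (SE, adjusted p 0.836 by limma). The other 7 were not analysed here.

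The spleen is a mixture of cells, and in bulk RNA fewer cells of a type and less RNA per cell cannot be told apart. Markers of B cells, T cells, red pulp macrophages and erythroid cells, the defining cells of a mouse spleen, were present on all 6 arrays. Summed levels below are sums of linear signal relative to the array's 75th percentile, over all tested genes of a list. Markers of red pulp macrophages, which clear antibody-coated red cells through Fc gamma receptors, had 5 higher and 11 lower means among 16 genes, with a median of -0.094, or 0.11 after quantile normalization. Their sum was 350.1 to 450.6 on MOTS-c arrays and 399.2 to 415.5 on vehicle arrays. In all 16 the groups overlapped. Hpgd, a prostaglandin dehydrogenase, and Spic, the transcription factor of red pulp macrophages, had the smallest p-values, with differences of 0.53 ± 0.29 and -0.30 ± 0.18 (SE).

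Monocyte markers had higher means in 11 of 12 genes, with a median of 0.36, and summed to 122.4 to 143.8 with MOTS-c and 85.6 to 123.8 with vehicle. Ly6c2, the Ly6C antigen of monocytes, differed by 0.73 ± 0.28 and Ms4a6c by 0.46 ± 0.18 (SE), both with MOTS-c arrays wholly higher. Marginal zone macrophage markers had higher means in 5 of 5 genes, with a median of 0.63 and sums of 59.4 to 91.2 with MOTS-c and 57.1 to 63.5 with vehicle. Among them Cd209b, the lectin SIGN-R1, differed by 0.92 ± 0.34, and Timd4, a receptor for dying cells, by 0.48 ± 0.18. With slide as a block these medians were 0.21 for monocytes and 0.29 for marginal zone macrophages, and without vehicle 1 the monocyte median was 0.16.

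B cell markers had higher means in 11 of 11 genes, with a median of 0.77. They summed to 183.4 to 198.0 with MOTS-c and 59.4 to 162.1 with vehicle, where vehicle 1 was lowest, and without vehicle 1 the median was 0.33. Cr2, a complement receptor, differed by 1.52 ± 0.56 and Cxcr5, a follicular homing receptor, by 0.87 ± 0.32 (SE). Dendritic cell markers were higher in 9 of 10 genes, with a median of 0.62 and sums of 106.7 to 115.3 with MOTS-c and 96.6 to 119.6 with vehicle. Clec10a, a lectin, and Flt3, a growth factor receptor, differed by 0.81 ± 0.27 and 0.63 ± 0.22, and the other probe of Flt3 by -0.23. The dendritic cell median was 0.33 without vehicle 1 and 0.37 with a slide block.

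NK cell markers were higher in 9 of 9 genes, with a median of 1.17 and sums of 20.4 to 31.3 with MOTS-c and 4.55 to 18.6 with vehicle. Klrk1, an activating receptor, differed by 0.80 ± 0.30 and Gzmb, granzyme B, by 1.29 ± 0.50 (SE). T cell markers were higher in 11 of 11, with a median of 0.97 and sums of 118.1 to 130.8 with MOTS-c and 32.9 to 93.2 with vehicle. Without vehicle 1 the NK cell and T cell medians were 0.46 and 0.42, and with a slide block they were 0.51 and 0.38. Neutrophil markers had a median of 0.89, but it was -0.079 with the slide as a block and ran from 0.48, without vehicle 2, to 1.5, without MOTS-c 3. Their sums overlapped, from 230.6 to 636.0 with MOTS-c and 171.8 to 502.1 with vehicle.

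Mast cell and basophil markers, which accompany Fcer1a, were dim, with sums of 5.05 to 7.35 on MOTS-c arrays and 4.54 to 6.34 on vehicle arrays. Of 10 tested, 7 had higher and 3 lower means, with a median of 0.13 that ran from -0.25, without vehicle 2, to 0.53, without vehicle 3. Hdc, which makes histamine, differed by 1.03 ± 0.32 and Il4, a cytokine of basophils and T cells, by 1.04 ± 0.37 (SE), both with MOTS-c wholly higher. Kit, the stem cell factor receptor, differed by -0.33 ± 0.19 with MOTS-c wholly lower, and the other 7 had overlapping groups and differences from -0.29 to 0.56. Of all probes tested, 16.3% had MOTS-c wholly higher and 18.5% wholly lower. The mast cell receptor gene Mrgprb1 and the basophil gene Cd200r3 were not tested because they were too dim.

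Markers of erythroid cells and genes of dividing cells had lower means in 10 of 10 genes each, with medians of -1.31 and -1.15. All 20 had MOTS-c arrays wholly lower, where 18.5% of all probes did. Each was lower at an unadjusted p under 0.05 by limma, where 14.1% of all probes were. Erythroid sums were 178.1 to 203.3 with MOTS-c and 332.4 to 587.0 with vehicle. Endothelial markers had a median of 0.0068, with 4 genes higher and 4 lower. Over all lists, 0 of 171 tested genes passed the adjusted test. The part of these cell marker differences in the Fc receptor values was not tested.

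**Figure D4:**
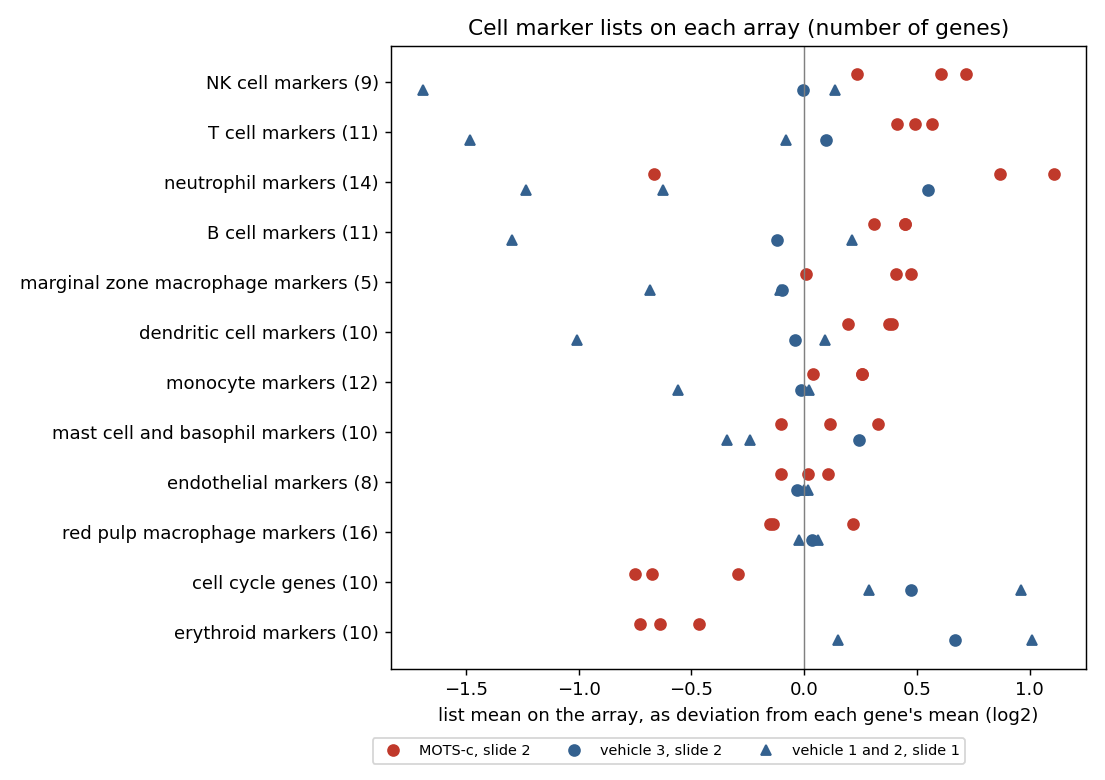
Mean of each cell marker list on each array, as the deviation of its genes from their mean over the 6 arrays (log2), with the number of tested genes in brackets; red circles are MOTS-c arrays, blue circles vehicle 3 (all on slide 2) and blue triangles vehicle 1 and 2 (slide 1). Lymphocyte lists lie lowest on vehicle 1, and erythroid and cell cycle lists lie lower on all MOTS-c arrays. The endothelial list runs from -0.10 to 0.10, and the red pulp macrophage list from -0.15 on MOTS-c 2 to 0.22 on MOTS-c 1.

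Set beside these lists, array by array, the deviations of Fcgr2b lay nearest to those of the marginal zone macrophage list, at a root mean square difference of 0.16 log2 units where the SD of Fcgr2b itself was 0.38. The B cell list ranked 5th for Fcgr2b, at 0.34. The measure counts the size of deviations as well as their pattern, and the B cell list varied widely, from -1.3 on vehicle 1 to 0.45 on MOTS-c 3. Its rank therefore does not show how closely Fcgr2b followed it in pattern. The deviations of Fcgr4 and Fcgr1 lay nearest to the monocyte list, at 0.24 and 0.31, where their own SDs were 0.33 and 0.38. For Fcgr4 the mast cell and basophil list was nearly tied with it, at 0.25. Those of Fcgr3 and Fcer1a lay nearest to the mast cell and basophil list, at 0.14 and 0.21, where their SDs were 0.28 and 0.41. Fcgrt and Fcer1g, like Fcgr1, lay near no list relative to their own SDs, which were 0.21 for Fcgrt and 0.18 for Fcer1g. The nearest was the endothelial list for Fcgrt, at 0.18, and for Fcer1g the red pulp macrophage, endothelial and monocyte lists nearly tied, at 0.166, 0.167 and 0.175. This description over 6 arrays was chosen after the values were seen, and the arrays share their slide and cell makeup.

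Among 13864 named genes, those whose deviations over the 6 arrays lay nearest to a receptor's were listed by the same measure. For Fcgr2b they were Zfp747, at 0.027, and Laptm5, a lysosomal protein of blood cells, at 0.040. For Fcgr3 they were Dock3, at 0.049, and Cldn15, at 0.060. For Fcgr4 they were Ifnlr1, the interferon lambda receptor, at 0.10, and Atp1a4, at 0.11. For Fcer1g they were Rps6kc1 and Eef1akmt2, at 0.035 and 0.038. For Fcgrt they were Cd68, a lysosomal glycoprotein of macrophages, and Hectd3, at 0.032 and 0.040. Fcgr1 was nearest to Kdr, an endothelial receptor, at 0.088, and Armc3, at 0.094. Fcer1a was nearest to Vmn1r217 and Gabrr1, at 0.10 and 0.11. With so many genes and 6 arrays, some lie this close to any pattern, and the measure says nothing of shared control.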

How the data were processed

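Spleen RNA was hybridised to 1-colour Agilent arrays. Per the file headers, Feature Extraction 11.0.1.1 gave a background-subtracted processed signal intensity per spot, with flags for background, saturation and outliers. For 31692 probes a deposited table gives log2 values of the authors, their signed fold (a score), and their p-value with its adjusted form. Its log2 values are quantile normalized between arrays, as judged from the values.

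From the processed signals, non-outlier spots of a probe were averaged and the 75th percentile of the array was subtracted on the log2 scale. The 75th percentile ranged from 678.0 to 925.5 and 61.8% to 64.0% of spots were well above background. Of 56605 probes, 38977 carried a symbol. A probe well above background throughout at least 1 group, with a value on all 6 arrays, was tested with limma 3.58.1 in R 4.3.3 (lmFit and eBayes, two-sided, Benjamini-Hochberg over 33734 probes, threshold 0.05). The number of arrays limits the precision, and an exact permutation test of 3 against 3 cannot go below 0.1, so none was run. The fit was tested on simulated data.

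The Fc receptor genes and the gene lists were chosen with earlier results of these data known. Genes named are all probes of the 7 receptors, up to 4 genes with the smallest p of each signal, partner or receptor list, up to 2 of each marker list, and the 2 nearest genes per receptor with an SD over arrays of at least 0.1. Sdhc, Gab2 and Kit, and the probes besides the brightest, were named after their values were seen. A listed gene stands for its brightest tested probe. Promoters are from RefSeq (GRCm38.p6). Alternatives were quantile normalization, normexp (offset 50, run on the median signal and median background), the authors' values, other filters, 1 probe a gene, slide and replicate number as blocks, each array left out, and slide 2 alone, added later.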

Additional observations from a re-analysis of the deposited data

How the results depend on the processing

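Of the 9 Fc receptor probes, 0 passed at an adjusted p under 0.05 under every alternative run, while 0 to 5 had an unadjusted p under 0.05: 5 after normexp, 4 with quantile normalization, 0 with the slide as a block. Their smallest adjusted p ran from 0.0764, without vehicle 2, to 0.534, under the slide block. The median over them, 0.30, was 0.15 with the slide as a block and within slide 2, a setting chosen after seeing the data, and 0.21 to 0.39 with each array left out in turn. The sign of Fcgr1 turned to -0.0043 with quantile normalization, -0.025 after normexp and -0.0037 with the authors' values, and ran from -0.15 to 0.30 with arrays left out. That of Fcer1a ran from -0.29 to 0.30, and Fcgrt was -0.096 with the slide block and within slide 2. The cause was not tested. Both Fcgr2b probes, both Fcgr3 probes, Fcgr4 and Fcer1g kept their sign in all settings run. Over all probes 2 passed, against 0 after normexp, with the authors' values, without a filter, with all 6 arrays above background and within slide 2, and 1 with the slide as a block. Leaving out an array gave 0 to 1113, with 1113 without vehicle 2 and 39 without vehicle 3. Of the listed genes 0 passed, and 0 to 13 with an array left out, the 13 without vehicle 2. Replicate numbers were read from titles, which the descriptions contradict for MOTS-c 3 and vehicle 3. Nothing in the labels states that these numbers pair the samples. Deviations of same-numbered arrays from their group means correlated at -0.17, 0.0064 and -0.090 across probes. With 3 arrays a group, such values cannot show whether samples were paired. With the replicate block 0 probes passed over all probes and 0 of the Fc receptors.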
